A study of Equus caballus with 2 samples.

Results

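CFD-high cells were the unstimulated equine endometrial fibroblasts with the most transcripts of CFD, which encodes complement factor D (adipsin). They were chosen by a measured value, their own CFD level in the control library, as the 10% of cells with the highest CFD in counts per 1000000 unique molecular identifiers (UMIs) of the cell (CPM). They numbered 304 of 3040 cells that could be ranked. The whole series held 8378 cells that passed the filters, of 9508 deposited cell barcodes. The 1520 cells of the lower 50% of the same ranking, called CFD-low cells here, were the comparison group, and 1216 cells lay between them. Since the ranking used the CFD level, that level is given as a description, and so are the differences of all other genes between the ranked cells.

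Primary fibroblasts from the endometrium of 4 mares were cultured on hydrogels coated with collagen, moved to reduced serum and then to medium with bovine serum albumin (BSA) in place of serum, which both groups share. For the last 24 h the control cells received no further supplement, and the other group received 10 ng/ml human recombinant TGF-β1, a cytokine that turns fibroblasts into contractile, matrix-forming cells. The cells of the 4 mares were pooled into 1 droplet library for each group, so there is no replicate, no test was made, and the intervals given here are 95% exact binomial intervals that cover counting error only. The files do not give the mare of a cell, so differences between mares and differences between cells of 1 mare cannot be told apart, and the cells treated with MFGE8 were not analysed here.

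Factor D is the serine protease that cleaves factor B and so forms the convertase of the alternative complement pathway. The classical pathway instead starts from C1, in which the proteases C1r and C1s act in turn and are held in check by the C1 inhibitor, SERPING1. Factor D is known best as a product of fat cells, and stromal fibroblasts of several tissues make it as well. Quiescent stromal fibroblasts and contractile myofibroblasts are usually told apart by PDGFRA, dermatopontin (DPT) and similar genes on one side and smooth muscle actin (ACTA2), calponin (CNN1) and transgelin (TAGLN) on the other.

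CFD itself spanned a wide range. The lowest CFD-high cell had 780 CPM, the median 1569 and the highest 13919 CPM, from 20, 74 and 653 CFD UMIs per cell at the lowest, median and highest. The cell just below the limit had 779 CPM, which is close to that of the lowest member, and the highest CFD-low cell had 21.7 CPM. No CFD UMI was found in 39.9% of all ranked control cells and in 79.9% of CFD-low cells. CFD-high cells held 72.5% of all CFD UMIs of the ranked cells with 8.71% of their total UMIs, and 22 of them lay above 5000 CPM. The level therefore ran in a continuous slope rather than in separate groups, as the plot of ranked cells shows.

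**Figure D1:**
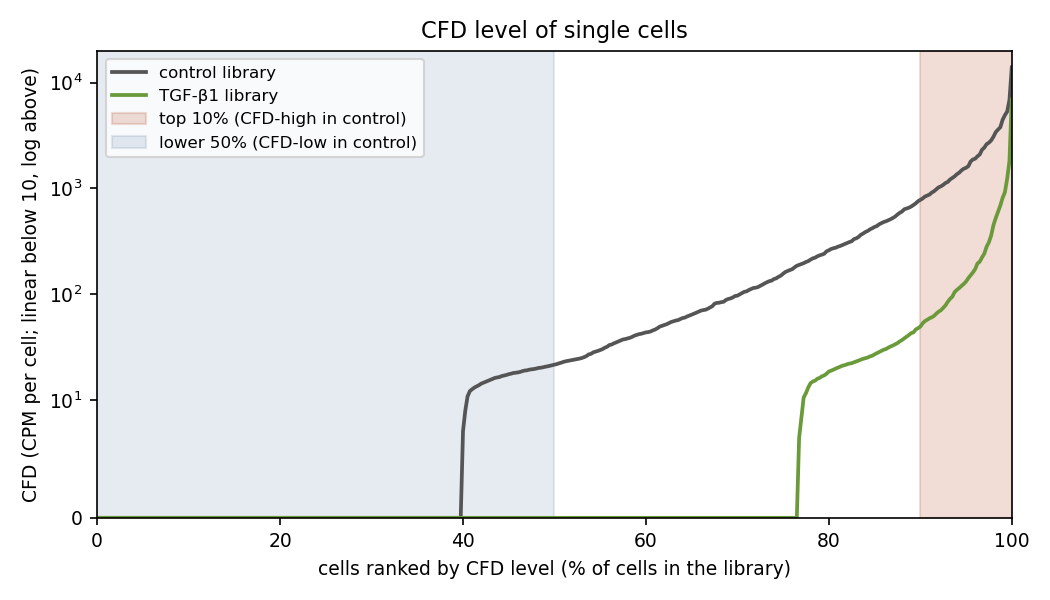
CFD level of each cell in CPM (vertical axis, linear below 10 and logarithmic above) against its place in the ranking of its library in percent of cells (horizontal axis), for the control and the TGF-β1 library. The control line starts to rise at 39.9% of cells and has no step at the limit of 780 CPM, and the TGF-β1 line stays at 0 up to 76.7% of cells.

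CFD-high cells were shallower than CFD-low cells, with a median of 42320.5 against 52426.5 UMIs per cell and 6242.5 against 6609.5 genes. The mitochondrial share was alike, at a median of 1.36% against 1.52%. The sums behind each level were 13965727 UMIs of CFD-high cells and 84901478 UMIs of CFD-low cells, so that a count of 0 allows up to 0.215 CPM in CFD-high cells. Cells with 3 or more UMIs of KRT8, an epithelial keratin, were left out of the ranking. They numbered 825, and 32 of them, or 3.88%, had CFD at the level of the members. The libraries shared 6 barcodes, of which 1 belonged to a CFD-high cell.

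The cells carried fibroblast genes. Collagen I (COL1A1), collagen III (COL3A1), fibronectin (FN1) and vimentin (VIM) were found in 100% of CFD-high cells at 20000 UMIs per cell, with 4694 CPM of COL1A1 and 4144 CPM of VIM. Epithelial EPCAM and CDH1 and endothelial PECAM1 were at 0 UMIs in CFD-high cells. The 6 epithelial markers found summed to 12.1 CPM against 22.8 CPM in CFD-low cells, of which KRT7 made up 8.95 and 18.5 CPM, and the 5 endothelial markers summed to 1.22 against 0.824 CPM. The 5 immune markers found summed to 54.3 against 53.0 CPM, of which CD68 made up 43.0 CPM in CFD-high cells, with 2 markers at 0. Of the 6 pericyte markers, which summed to 58.6 against 57.0 CPM, RGS5 held 51.6 CPM in CFD-high cells and 2 were at 0. Mesothelial markers summed to 49.4 against 36.6 CPM, nearly all from WT1, which endometrial stroma also expresses. The 16 fat cell genes summed to 2278 against 1674 CPM, mostly from CEBPD, and 5 of the 6 with at least 10 CPM were higher, APOE and APOD past 2-fold, while FABP5 was lower at a log2 ratio of -0.98. The more specific ADIPOQ, LPL and CIDEC were at 2.36, 3.08 and 1.93 CPM against 1.61, 1.78 and 1.00 CPM, and FABP4, LEP, PPARG and CD36 were at 0 UMIs in CFD-high cells. The part of other cell types in the results was not tested.

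Of the 5 genes proposed as markers of these cells, C1R and SOD3 were higher beside CFD, and SAA1 and COMP were not. SAA1, an acute phase protein, stood at 14.5 CPM in CFD-high and 30.9 CPM in CFD-low cells, a log2 ratio of -1.10 (-1.31 to -0.89). Its UMIs came from few cells, since 10 CFD-high cells held 78.7% of them. In 3 classes of cells of equal size by total UMIs, from shallow to deep, its log2 ratio was 0.45, 0.57 and -2.01, so its direction differed by depth, and it was -0.43 after thinning, -0.13 with the top 20% as members and -0.10 without the rebuilt cluster of cells that held most members. COMP, a matrix protein of cartilage and tendon, had 4 UMIs in CFD-high cells and 0.286 against 0.730 CPM. The cells are therefore called here by their CFD level alone.

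Across all genes the groups were close. Of 7760 genes that averaged 10 CPM or more over both groups, CFD left out, 93 were more than 2-fold higher in CFD-high cells (1.2%) and 66 were more than 2-fold lower (0.851%). The minimum was set on the mean of both groups, so a gene could reach it through the group where it is high, and 43 of the 93 and 16 of the 66 were under 10 CPM in the other group. At a minimum of 50 CPM 23 genes were higher and 26 lower. Of all 7760 genes 56.7% were higher, which is the share to set beside the counts of each list below. The median log2 ratio was 0.03, and 90% of the genes lay between -0.43 and 0.52. When the cells were split into 3 classes of equal size by total UMIs, all 93 higher genes were higher in each class and 65 of the 66 lower genes were lower in each. Of all 7760 genes, 3848 kept the same direction in all 3 classes. The classes hold the cells from which the genes were called, so this is a description and not a separate check. The 15 genes farthest from 0 in each direction are shown in the plot of gene ratios.

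**Figure D2:**
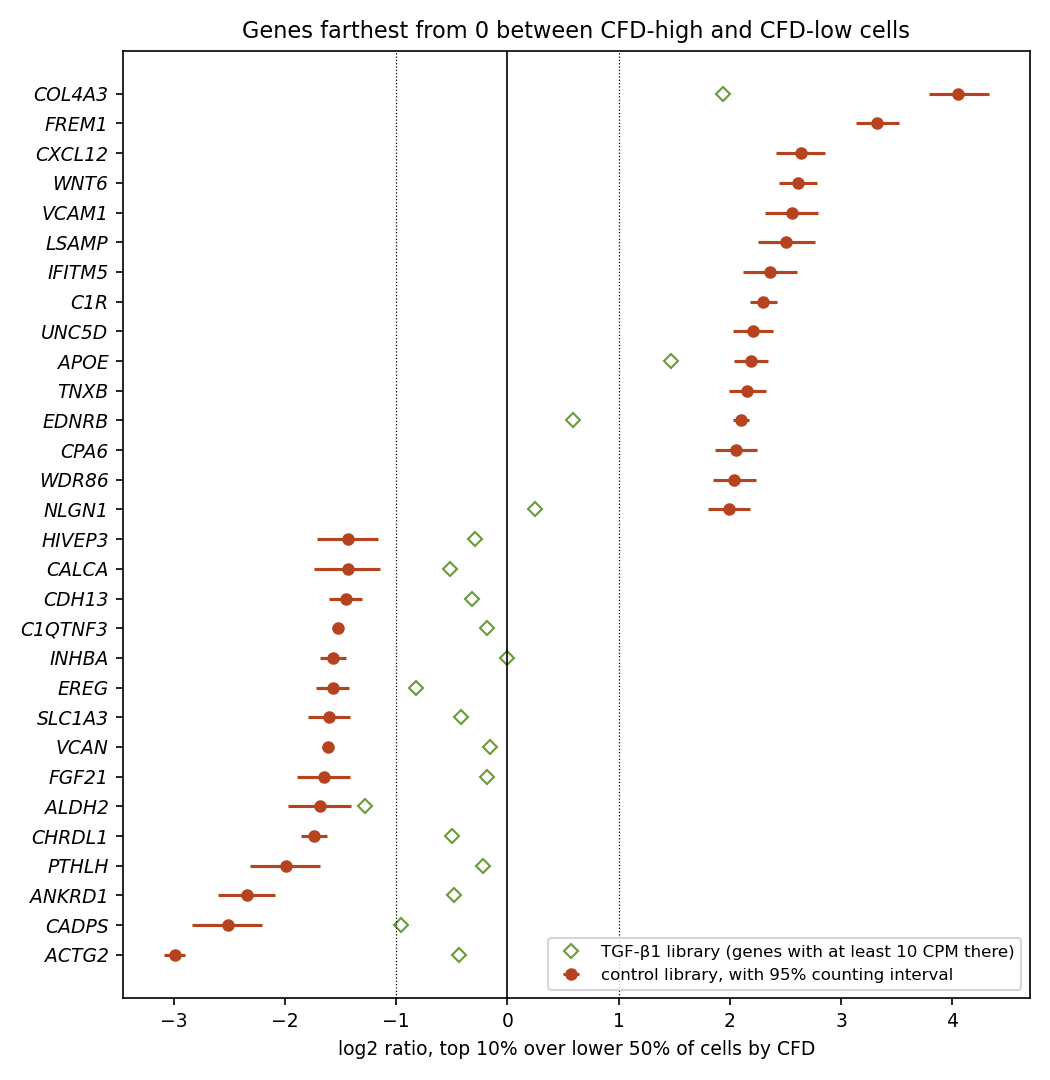
Log2 ratio of the summed level in the top 10% over the lower 50% of cells by CFD (horizontal axis) for the 15 genes farthest above and below 0 in the control library, with filled circles and 95% counting intervals for the control library and open diamonds for the same ranking of the TGF-β1 library. In the control library the genes ran from 4.05 for COL4A3 to -2.99 for ACTG2, and the diamonds lie closer to 0.

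C1R, C1S and SERPING1, of the classical complement pathway, were higher in CFD-high cells, while C1QA, C1QB and C1QC, which encode the recognition subunit of C1, were at 0 UMIs. C1R was found at 69.7 CPM against 14.2 CPM in CFD-low cells, a log2 ratio of 2.30 (2.18 to 2.42). Single CFD-high cells had from 0 to 482 CPM of C1R with a median of 51.8 CPM, while the median CFD-low cell had 0, and 75% of CFD-high cells lay above the upper quartile of CFD-low cells. At 20000 UMIs per cell, 64.5% (58.8 to 69.9) of CFD-high and 22.0% (19.9 to 24.1) of CFD-low cells had a C1R UMI, or 80.6% and 41.2% without thinning. The groups thus overlapped, and many CFD-low cells carried C1R as well. No cell type known to lack these genes was in the library, so the share of cells with a UMI that free RNA gives could not be measured.

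C1S, the protease that C1r activates, was at 38.0 against 10.6 CPM, a log2 ratio of 1.85 (1.69 to 2.00). Its inhibitor SERPING1 was at 37.2 against 10.1 CPM, a log2 ratio of 1.88 (1.72 to 2.04). C1R and C1S are neighbours in the horse annotation of RefSeq (assembly TB-T2T). Of the 128 CFD-high cells with a C1S UMI after thinning, 94 (73.4%) also had one of C1R, beside 64.5% of all CFD-high cells. SUSD4, a complement regulator, had 16.3 against 8.81 CPM, and CLU (clusterin) had 376 against 273 CPM. The other measured members were C1QBP, with 422 against 535 CPM, COLEC12, with 43.1 against 45.7 CPM, and CSMD1, with 16.3 against 15.9 CPM.

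Of the alternative pathway little was measured beside CFD. C3, the central component, had 2.58 CPM in CFD-high and 0.33 CPM in CFD-low cells, and CFB, the substrate of factor D, had 3.08 against 1.51 CPM. Both lie below the minimum of 10 CPM that was set for calling a ratio, as did CFI, the protease that inactivates C3b, at 7.73 against 3.47 CPM. C4BPA, a fluid-phase inhibitor of the classical pathway, had 11.3 against 3.22 CPM and was below it as well. In all, 47 complement genes were listed and 36 of them found, 8 reached 10 CPM, 6 of these 8 were higher and 2 lower, and their median log2 ratio was 0.67 beside 0.03 for all genes. The 3 genes past 2-fold were C1R, C1S and SERPING1. Where the top 10% and lower 50% were taken within each rebuilt cluster of cells, the median of the list was 0.0935.

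Genes next to CFD were higher by small amounts or too scarce to compare. MED16 stood at 14.9 against 11.9 CPM, a log2 ratio of 0.32 (0.10 to 0.54), and R3HDM4 at 23.6 against 18.04 CPM, a log2 ratio of 0.38 (0.21 to 0.56). On the other side AZU1 had 0.931 against 0.612 CPM and PRTN3 0 against 0.0236 CPM. These genes were chosen for their place after the values were seen, from the RefSeq assembly named above, which differs from the build of the counts.

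All 6 chemokines with at least 10 CPM were higher in CFD-high cells, with a median log2 ratio of 0.67. CXCL12, the stromal ligand of CXCR4, was at 24.8 against 3.98 CPM, a log2 ratio of 2.64 (2.42 to 2.86). The neutrophil chemokine CXCL6 was at 868 against 460 CPM, with a median of 407 CPM in CFD-high cells and 116 CPM in CFD-low cells and a highest value of 8781 CPM. MIP-2BETA, of the same family, was at 294 against 139 CPM, a log2 ratio of 1.08 that became 0.12 where cells were ranked within rebuilt clusters. Members of this family are alike in sequence, and reads shared between them may be split. In rebuilt cluster 2, described below, the median of the list was -0.14 rather than above 0.

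VCAM1, an adhesion molecule for leukocytes, was at 20.7 against 3.52 CPM, a log2 ratio of 2.55 (2.32 to 2.79). This ratio rests on few cells. After thinning, 9.87% (6.76 to 13.8) of CFD-high and 2.70% (1.94 to 3.64) of CFD-low cells had a VCAM1 UMI, or 14.8% and 3.88% without thinning, and 10 cells held 68.5% of the UMIs of CFD-high cells. Of the list of acute phase and NF-κB target genes that VCAM1 belongs to, 10 of 14 were higher, beside 56.7% of all genes, with a median log2 ratio of 0.36. BCL3, a nuclear partner of NF-κB, was at 18.5 against 9.76 CPM and the inhibitor NFKBIA at 245 against 164 CPM, while LCN2 (lipocalin) was at 52.5 against 58.4 CPM and TNFAIP3 at 13.1 against 11.05 CPM.

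Genes of antigen presentation and of the interferon response were higher for the most part. Of the antigen presentation list, 10 of 13 genes were higher and the median log2 ratio was 0.49. The immunoproteasome subunit PSMB10 was at 118 against 57.9 CPM, a log2 ratio of 1.03 (0.95 to 1.11), and PSMB9 was at 63.7 against 39.8 CPM. Single CFD-high cells had from 0 to 509 CPM of PSMB10 with a median of 105 CPM, against a median of 46.2 CPM in CFD-low cells. TAPBPL, which edits the peptides on class I molecules, was at 31.8 against 16.8 CPM, and B2M, the light chain of class I, at 2463 against 1848 CPM. The 3 lower members were PDIA3, CALR and CANX, chaperones that serve many glycoproteins.

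Of the 15 interferon alpha and beta response genes measured, 14 were higher, but the median log2 ratio was 0.21. BST2 (tetherin), which holds budding virus at the cell surface, was the single member past 2-fold, at 29.1 against 7.68 CPM and a log2 ratio of 1.92 (1.74 to 2.10). IFI27 was at 537 against 350 CPM, and it was found in 100% of CFD-high and 98.8% of CFD-low cells after thinning. ISG15 and OAS1, more general members of the response, had log2 ratios of 0.21 and 0.14.

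The gene farthest above 0 was COL4A3, a chain of basement membrane collagen IV. It was at 30.9 CPM against 1.86 CPM, a log2 ratio of 4.05 (3.79 to 4.32). Its UMIs lay in a minority of cells, as 26.0% (21.1 to 31.3) of CFD-high and 2.43% (1.72 to 3.34) of CFD-low cells had one after thinning, or 37.5% and 4.28% without it, and the highest cell had 701 CPM. COL4A4, which assembles with it and is its neighbour in the RefSeq assembly, had 7.23 against 1.47 CPM, below the minimum of 10 CPM, and was added after its values were seen. The main collagen IV chains COL4A1 and COL4A2 differed little, with log2 ratios of -0.28 and -0.03. Of the 30 CFD-high cells with a VCAM1 UMI after thinning, 5 (16.7%) also had one of COL4A3, beside 26.0% of all CFD-high cells.

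Other matrix genes were found on either side of 0. FREM1, an extracellular matrix protein of the epithelial basement membrane zone, was at 41.7 against 4.16 CPM, a log2 ratio of 3.33 (3.13 to 3.52). Tenascin X (TNXB), which organises collagen fibrils, was at 37.3 against 8.37 CPM, a log2 ratio of 2.16 (1.99 to 2.32), and the elastic fibre proteins FBLN5 and FBLN1 had log2 ratios of 1.12 and 1.11. COL23A1, a transmembrane collagen, was at 38.0 against 11.4 CPM. ECM1, a secreted matrix glycoprotein named after its values were seen, was at 351 against 89.2 CPM, with a median of 147 CPM in CFD-high cells and 48.3 CPM in CFD-low cells and a highest value of 7649 CPM.

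Collagen chains and their enzymes were lower for the most part. Of 19 collagen chains measured 12 were lower, with a median log2 ratio of -0.27, and of 24 collagen modifying enzymes 18 were lower, with a median of -0.18. COL12A1, which binds the surface of collagen I fibrils, was at 233 against 455 CPM, a log2 ratio of -0.97, and COL1A1 and COL3A1 had log2 ratios of -0.27 and -0.49. LOX, the crosslinking lysyl oxidase, was at 42.5 against 76.0 CPM, and the collagen prolyl hydroxylase subunit P4HA1 at 217 against 353 CPM. Matricellular proteins divided 11 higher to 14 lower, with LTBP1, which stores latent TGF-β, at 67.7 against 164 CPM and CCN2 (connective tissue growth factor) at 134 against 256 CPM. Small leucine-rich proteoglycans divided 6 higher to 3 lower, close to the division of all genes, with PRELP at a log2 ratio of 0.90 and asporin (ASPN) at -0.56.

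Signalling genes were among those farthest from 0. The ligand WNT6 was at 39.8 against 6.51 CPM, a log2 ratio of 2.61 (2.44 to 2.78). EDNRB, an endothelin receptor, was at 190 against 44.2 CPM, a log2 ratio of 2.10 (2.03 to 2.18), and was the most abundant of the 15 genes farthest above 0. Its level in single CFD-high cells ran from 0 to 1216 CPM with a median of 150 CPM, while the median CFD-low cell had 20 CPM, and 89.1% of CFD-high cells lay above that median. WNT5A was at 67.5 against 31.9 CPM, the WNT antagonist FRZB at 55.3 against 30.8 CPM, and the BMP antagonist CHRDL1 at 45.0 against 150 CPM, a log2 ratio of -1.74 (-1.85 to -1.62). Where cells were ranked within rebuilt clusters, CHRDL1 had a log2 ratio of -0.75 and WNT5A of 0.83. The list of WNT and BMP antagonists as a whole divided 5 to 7, with a median of -0.04.

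Genes of the IGF axis divided 7 higher to 3 lower, with a median of 0.33. IGF2 was at 31.1 against 12.9 CPM, a log2 ratio of 1.26 (1.10 to 1.43), and PAPPA, the protease that frees IGF from its binding proteins, at 122 against 62.6 CPM. IGFBP5 was at 307 against 601 CPM, a log2 ratio of -0.97, but in rebuilt clusters 0 and 2 it was higher, with log2 ratios of 0.74 and 0.47. Of the 15 genes farthest below 0, INHBA, which encodes the subunit of activin A, was at 43.5 against 129 CPM, a log2 ratio of -1.57 that became -0.51 where cells were ranked within rebuilt clusters. EREG, a ligand of the EGF receptor, was at 28.4 against 84.2 CPM. FGF21, PTHLH and CALCA, which encode secreted hormones, had log2 ratios of -1.65, -1.99 and -1.44, each from a level of under 12 CPM in CFD-high cells. FGF21 became -0.57 where cells were ranked within rebuilt clusters. CALCA became -0.96 where they were ranked within classes of total UMIs and -0.91 with the top 20% as members. MFGE8, the protein at the centre of the study, was at 308 against 296 CPM, TGFB1 at 24.6 against 21.0 CPM and PDGFA at 22.9 against 23.7 CPM, and PDGFC had a log2 ratio of -0.19.

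The remaining genes farthest above 0 had varied roles. LSAMP, NLGN1 and UNC5D, best known from neurons as adhesion and guidance molecules, had log2 ratios of 2.51, 1.99 and 2.21, and each was at 0 in the median CFD-high cell. Inside clusters 1, 2 and 4, described below, LSAMP had log2 ratios of 1.74, 2.48 and 0.57, and NLGN1 of 0.60, 2.06 and 1.56. APOE, a lipid carrier, was at 43.7 against 9.60 CPM, a log2 ratio of 2.19 (2.03 to 2.34). The carboxypeptidase CPA6 was at 26.9 against 6.48 CPM, IFITM5, known from bone cells, at 18.8 against 3.65 CPM, and WDR86 at 25.9 against 6.30 CPM. SOX5, a transcription factor named after its values were seen, was at 183 against 52.9 CPM, and the protease inhibitor TFPI2, named likewise, at 444 against 157 CPM.

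Some genes that mark resting stromal fibroblasts across tissues were higher in CFD-high cells. In this list 6 of 9 genes were higher, a share near the 56.7% of all genes, and the median log2 ratio was 0.78 beside 0.03 for all genes. Inside clusters 0, 1, 2 and 4, described below, the median was 0.44, 0.39, 0.33 and 0.26, and it was 0.31 where cells were ranked within clusters. PDGFRA was at 101 against 39.8 CPM, a log2 ratio of 1.35 (1.26 to 1.44), dermatopontin (DPT) at 127 against 60.9 CPM and apolipoprotein D (APOD) at 46.8 against 17.6 CPM. COL15A1, of the same list, was lower at 42.8 against 82.6 CPM. Of 15 receptors of steroid hormones and genes of decidual stroma, 13 were higher, none past 2-fold, with a median of 0.33. The progesterone receptor PGR was at 56.9 against 29.0 CPM, the mineralocorticoid receptor NR3C2 at 24.2 against 13.2 CPM and the oestrogen receptor ESR1 at 92.6 against 54.2 CPM, while the glucocorticoid receptor NR3C1 had a log2 ratio of 0.01. Inside clusters 0, 1, 2 and 4 the median of these 15 genes was 0.006, 0.16, 0.08 and 0.04. ESR1 had log2 ratios of 0.15, -0.02, 0.91 and -0.14 there. PGR was higher in all 4 clusters, and NR3C2 was lower in cluster 0 alone, at -0.28.

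SOD3, the extracellular superoxide dismutase, was at 79.3 against 24.8 CPM, a log2 ratio of 1.68 (1.57 to 1.78). Single CFD-high cells had from 0 to 610 CPM of SOD3 with a median of 56.4 CPM, against a median of 13.9 CPM in CFD-low cells. Catalase (CAT) was at 166 against 84.9 CPM and GCLC, which starts glutathione synthesis, at 103 against 64.3 CPM. In the list of antioxidant and metal binding genes 16 of 20 were higher, with a median of 0.18, and the cytosolic and mitochondrial enzymes SOD1 and SOD2 had log2 ratios of 0.10 and -0.02. Proteases and their inhibitors were higher for 11 of 15 genes with a median of 0.31, beside 56.7% and 0.03 for all genes, with cathepsin K (CTSK) at 98.5 against 61.6 CPM and SERPINF1 at 214 against 132 CPM.

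The contractile genes were lower. Of 17 genes measured 16 were lower, 3 of them past 2-fold, and the median log2 ratio was -0.55. ACTG2, smooth muscle gamma actin, was the gene farthest below 0 of all, at 68.1 against 541 CPM and a log2 ratio of -2.99 (-3.08 to -2.90). It was not found in the median CFD-high cell, and the highest such cell had 2941 CPM. ACTA2 was at 1920 against 4303 CPM, a log2 ratio of -1.16 (-1.18 to -1.15), with medians of 591 and 3356 CPM and highest values of 17725 and 26316 CPM in single cells. Thus 18.1% of CFD-high cells still lay above the median CFD-low cell. Actin genes are alike in sequence, so reads may be split between them.

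CNN1 was at 106 against 241 CPM, and desmin (DES) at 398 against 731 CPM. TAGLN was at 3027 against 5156 CPM, a log2 ratio of -0.77 (-0.78 to -0.75), and was found in every CFD-high cell. SYNPO2 was the single higher member, at 113 against 100 CPM. All 6 smooth muscle markers were lower, with a median of -0.84, although these share genes with the contractile list. Where cells were ranked within rebuilt clusters, the median of the contractile list was -0.16, and that of the 6 smooth muscle markers was -0.34. Inside single clusters the median of these markers was 0.16 in cluster 0, -0.53 in cluster 1, -0.26 in cluster 2 and -0.21 in cluster 4.

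Genes known to respond to TGF-β were lower in these unstimulated CFD-high cells. Of 20 genes 15 were lower, 4 past 2-fold, with a median log2 ratio of -0.23, and several of them are also contractile genes. TGFBI was at 194 against 509 CPM, a log2 ratio of -1.39 (-1.44 to -1.33). SMAD7 and SKIL, feedback inhibitors of the pathway, had log2 ratios of 0.03 and -0.07, and the oxidase NOX4 was higher at 73.8 against 50.1 CPM. ANKRD1, a nuclear protein of stretched and contractile cells, was at 9.45 against 47.7 CPM, and versican (VCAN), a large proteoglycan, at 265 against 812 CPM, a log2 ratio of -1.61 (-1.66 to -1.57). Of the CFD-high cells, 1.97% lay above the upper quartile of CFD-low cells for VCAN. Where cells were ranked within rebuilt clusters, TGFBI, ANKRD1 and VCAN had log2 ratios of -0.91, -0.60 and -0.84.

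Glycolysis and hypoxia genes were lower too. In this list 20 of 23 were lower and the median log2 ratio was -0.57. BNIP3, a mitophagy receptor induced by low oxygen, was at 146 against 387 CPM, a log2 ratio of -1.40 (-1.47 to -1.34), with medians of 120 and 230 CPM in single cells. Lactate dehydrogenase A (LDHA) was at 486 against 1002 CPM, PDK1 at 12.5 against 27.4 CPM and GAPDH at 2575 against 3883 CPM. EGLN3, an oxygen sensor, went the other way at 17.1 against 7.94 CPM. Cholesterol synthesis genes were lower for 19 of 22 with a median of -0.21, and chaperones of the endoplasmic reticulum for 15 of 19 with a median of -0.13, none past 2-fold. Immediate early and stress genes, which respond to the handling of cells, were higher for 18 of 23 with a median of 0.15.

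**Figure D3:**
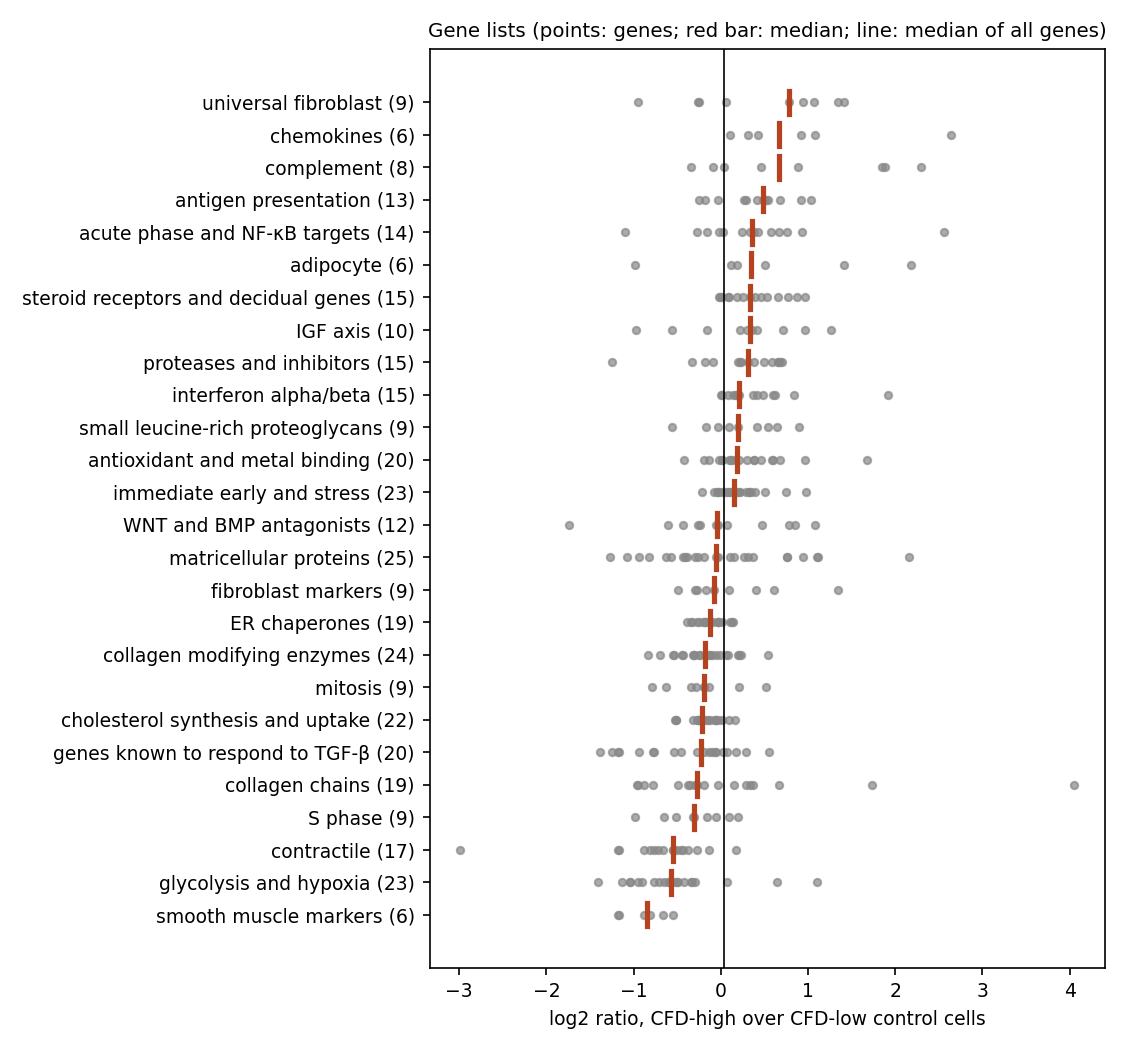
Log2 ratio of CFD-high over CFD-low cells (horizontal axis) for the genes of each list with at least 5 genes at 10 CPM, as grey points, with the median as a red bar, the number of genes in brackets and the median of all genes, 0.03, as a vertical line. Medians ran from 0.78 for the universal fibroblast genes to -0.84 for the smooth muscle markers, and most lists held genes on either side of 0.

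Few CFD-high cells were in cycle. Of the ranked cells 54 carried at least 3 cycling markers after thinning, of which 3 were CFD-high (0.987%) and 37 CFD-low (2.43%). The 9 mitosis genes measured had a median of -0.20 and the 9 S phase genes a median of -0.31. The 9 cycling markers found, by contrast, summed to 62.2 against 60.6 CPM, and the 2 of them with at least 10 CPM, CENPF and TOP2A, had log2 ratios of 0.52 and 0.21. For CENPF, at 18.5 against 12.9 CPM, all UMIs of CFD-high cells lay in 10 cells.

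Some genes differed step by step along the whole ranking. The control cells were split into 10 bins of 304 cells by CFD level, of which the lowest 4 were joined because 1214 of their 1216 cells had no CFD UMI. CFD-low cells had at most 2 CFD UMIs, so the place of a cell in the low bins also depends on its total UMIs. The median was 57684.5 UMIs per cell in bin 5 and 45602.5 in bin 6. That step, where the CFD-low group ends, cannot be told apart from a difference in depth. C1S ran through 9.96, 12.5, 13.0, 17.4, 19.7, 24.1 and 38.0 CPM from the lowest to the highest bin, higher at each of the 6 steps. EDNRB ran through 42.0, 51.5, 58.1, 78.4, 83.1, 121 and 190 CPM. ACTG2 ran the other way through 550, 513, 393, 235, 145, 119 and 68.1 CPM, and VCAN from 823 to 265 CPM, lower at each step.

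Not all genes followed the ranking in this way. COL4A3 had 10.4 CPM in the last bin but 1 and 30.9 CPM in the highest, and APOE had 13.6 and 43.7 CPM there, with 6.34 to 12.5 CPM in the bins below. C1R was between 25.8 and 30.7 CPM in the 4 bins before the highest and 69.7 CPM in it. ACTA2 and TAGLN were level between the joined lowest bins and the next, at 4299 and 4317 CPM for ACTA2, and then lower at each step. Of all 7760 genes, 1.95% were higher at every step and 1.24% lower at every step. Among the 93 higher genes 35 had this pattern and among the 66 lower genes 26, as a description of the same cells that were compared above.

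**Figure D4:**
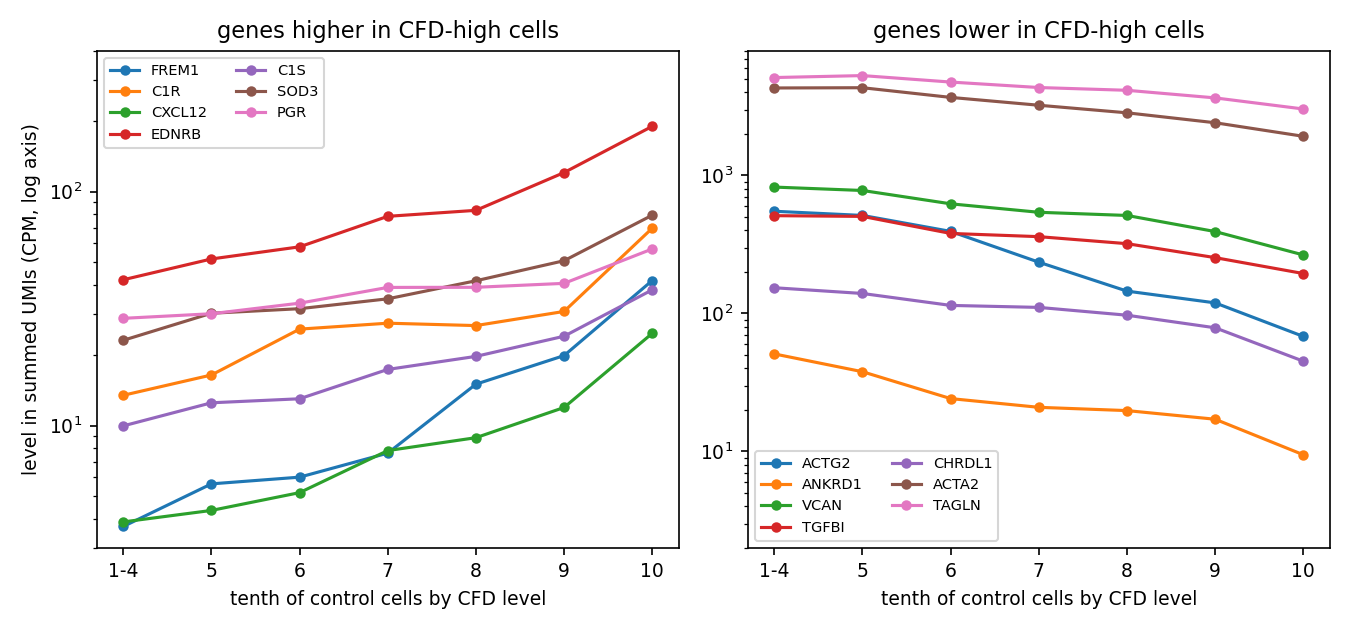
Summed level in CPM on a logarithmic axis (vertical) in the 10 bins of control cells by CFD level (horizontal axis, with the lowest 4 joined), for 7 genes higher (left) and 7 genes lower (right) in CFD-high cells. EDNRB and C1S are higher at each step and reach 190 and 38.0 CPM, and ACTG2 runs down from 550 to 68.1 CPM.

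CFD-high cells were unevenly spread over groups of like cells. When the control cells were clustered without CFD, 7 clusters resulted. CFD-high cells made up 21.6% (18.6 to 24.7) of cluster 1 and 24.8% (20.1 to 29.9) of cluster 4, and these clusters held 51.0% and 26.0% of them. They made up 3.81% of cluster 0, 5.51% of cluster 2, 0.415% of cluster 3 and 0 of 33 cells of cluster 6. In cluster 5, which had 9 of 9 cycling markers more than 2-fold above the other cells and is cycling-like, 3 of 80 cells were CFD-high. Many cells of clusters 1 and 4 were not CFD-high, 211 and 60 of them being CFD-low. The clusters were not matched to mares, and clusters and mares cannot be told apart here.

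Several differences were also seen inside clusters, among the 4 clusters with at least 20 CFD-high and 20 CFD-low cells. C1R had log2 ratios of 2.17, 2.38, 1.97 and 1.77 in clusters 0, 1, 2 and 4, and SOD3 of 1.07, 1.20, 1.05 and 1.03. VCAM1 was higher in all 4, with log2 ratios of 1.55, 0.99, 3.81 and 4.62, although the last of these rests on 4 UMIs in CFD-low cells. FREM1 was between 1.99 and 2.90. COL4A3 had log2 ratios of 4.25, 2.87 and 2.27 in clusters 1, 2 and 4, and in cluster 0 it was at 2.17 against 0.467 CPM, with 3 UMIs in CFD-high cells, from which no ratio was read. The levels of COL4A3 in CFD-high cells still differed by cluster, at 2.17, 50.1, 5.73 and 14.2 CPM in clusters 0, 1, 2 and 4. Glycolysis and hypoxia genes had medians of -0.45, -0.43, -0.52 and -0.47.

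Other differences were smaller or turned within clusters. CXCL12, at a log2 ratio of 2.64 over all cells, was between 1.02 and 1.42 in the 4 clusters, and EDNRB, at 2.10, between 0.60 and 1.37. WDR86 was at -0.45 in cluster 2, from 4.17 against 5.67 CPM, MIP-2BETA at -0.74 in cluster 2, and TFPI2, INHBA and CNN1 at -0.27, 0.20 and 0.23 in cluster 0, each against its direction over all cells. ACTA2 had log2 ratios of 0.16, -1.09, -0.43 and -0.19 in clusters 0, 1, 2 and 4, TAGLN ran from -0.67 to 0.11, and the median of the contractile list was 0.16 in cluster 0 and -0.33 in cluster 1. ACTG2 was lower in all 4, from -2.59 in cluster 1 to -0.67 in cluster 4. ANKRD1 was higher in cluster 1 at 0.70, from 7.64 against 4.70 CPM. SAA1 was lower in clusters 0, 1 and 2 and higher in cluster 4 at 1.13.

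**Figure D5:**
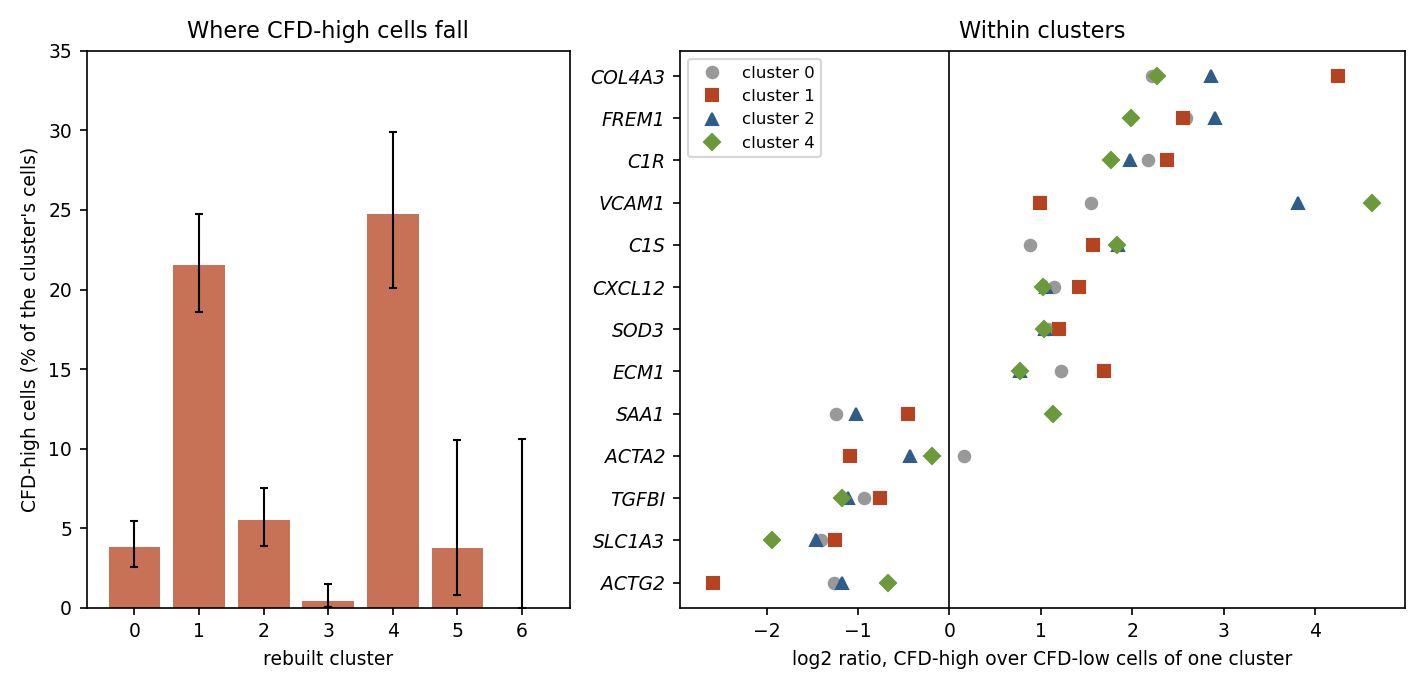
Left, CFD-high cells in percent of the cells of each rebuilt cluster, as bars with 95% exact binomial intervals. Right, log2 ratio of CFD-high over CFD-low cells within each of 4 clusters for 13 genes. Clusters 1 and 4 stand at 21.6% and 24.8%, C1R and SOD3 lie close together in the 4 clusters, and ACTA2 and SAA1 lie on either side of 0. The point of COL4A3 in cluster 0 rests on 3 UMIs in CFD-high cells.

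The TGF-β1 library held few cells of this kind. CFD was at 35.6 CPM there and 256 CPM in the control library, no CFD UMI was found in 76.7% of its cells, and 47 of 4434 cells, or 1.06% (0.780 to 1.41), reached the level of the CFD-high cells. Library preparation and treatment cannot be told apart with 1 library each. The KRT8 limit also took unequal parts of the libraries, since it left 3040 of 3865 control cells and 4434 of 4513 TGF-β1 cells that passed the other filters. Its own top 10% by CFD, 443 cells of which the lowest had 50.3 CPM, was set against its lower 50%, 2217 cells without a CFD UMI. Of 7622 genes 9 were more than 2-fold higher (0.118%) and 2 more than 2-fold lower (0.0262%). Here CFD separated the cells less, with a median of 133 CPM in the top group against 1569 CPM in CFD-high control cells.

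These are other cells than those used to choose the CFD-high cells. The 9 higher genes were COL4A3, CP, NKD2, ECM1, APOE, SOX5, C1QTNF12, SOD3 and SMOC2, and the 2 lower were ALDH2 and AREG. COL4A3 was at 39.8 against 10.4 CPM, a log2 ratio of 1.93 (1.804 to 2.062). CP, which encodes ceruloplasmin, was at 24.8 against 6.90 CPM, NKD2, an inhibitor of WNT signalling, at 23.3 against 7.41 CPM, and ECM1 at 199 against 71.8 CPM. APOE was at 30.8 against 11.1 CPM and SOD3 at 36.0 against 17.5 CPM. ALDH2, an aldehyde dehydrogenase, was at 7.79 against 18.9 CPM, and in control cells its log2 ratio was -1.68.

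Of the 93 genes higher in CFD-high control cells, 50 had at least 10 CPM in the TGF-β1 library, and 47 of these were higher in its top group, where 59.8% of all genes were higher. Their median log2 ratio was 0.46 and 6 were past 2-fold. Of the 66 lower genes 62 reached 10 CPM and 57 were lower there, where 40.2% of all genes were lower, with a median of -0.30 and 1 past 2-fold. The contractile list had a median of 0.02 in this ranking, with 11 of 18 genes higher, beside -0.55 in the control library. ACTA2 was at 4104 against 4916 CPM and TAGLN at 7311 against 7074 CPM. Glycolysis and hypoxia genes were lower for 17 of 21, with a median of -0.22. Of the complement list 4 genes reached 10 CPM, 1 higher and 3 lower, with a median of -0.0133. The 3 complement genes past 2-fold in control cells were below that minimum here, and their log2 ratios were 0.92 (0.53 to 1.30) for C1R, from 3.60 against 1.90 CPM, 0.86 (0.43 to 1.28) for C1S and 0.70 (0.44 to 0.96) for SERPING1. Of the acute phase and NF-κB list 3 of 8 were higher, with a median of -0.0864. The difference between the libraries' ratios was not tested.

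Many genes that stood high in CFD-high cells were scarce in the TGF-β1 library. Over all its ranked cells C1R was at 2.03 CPM against 24.2 CPM in the control library, C1S at 1.82 against 16.0 CPM, FREM1 at 0.874 against 10.5 CPM and VCAM1 at 0.0186 against 7.23 CPM. COL4A3 instead was at 14.9 against 5.71 CPM, DPT at 204 against 75.9 CPM, and APOE at 13.5 against 13.0 CPM. Of the genes lower in CFD-high cells, TGFBI was at 2008 against 412 CPM, ACTG2 at 971 against 378 CPM and ANKRD1 at 314 against 33.9 CPM, while BNIP3 was at 273 against 309 CPM. These values share the control cells with the comparison of CFD-high and CFD-low cells and are given side by side only.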

How the data were processed

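UMI counts per gene and cell barcode were deposited by the authors, made with Cell Ranger against EquCab3.0 (version 7.1.0 per the processing notes, 8.0.1 per the file header), without normalization and before their cell filters. Cells with at least 20000 UMIs, 3500 genes, under 4% mitochondrial UMIs and fewer than 3 KRT8 UMIs were ranked by CFD CPM. UMIs were summed per group and scaled to CPM, and ratios carry no pseudocount. Genes that averaged 10 CPM or more over both groups were compared at a 2-fold limit. The interval of a list's median is the median of its genes' bounds. Shares of cells were taken after thinning to 20000 UMIs, which left out no cell. Ties in CFD, as among the TGF-β1 cells at 0, were ranked in barcode order. Doublets were not called, since the study used genotypes from reads. Barcodes with 2 cells can therefore remain.

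Clusters were rebuilt with scanpy 1.11.5 and leidenalg 0.10.2 (2000 variable genes without CFD, 30 components, 20 neighbours, resolution 0.5). Sums and intervals were made with pandas 2.3.3, scipy 1.17.1 and numpy 2.4.6 and checked on simulated counts. Named genes were the 5 proposed markers, the 15 farthest from 0 in each direction with the same direction in 3 classes of cells by UMIs, up to 3 genes of each of 32 lists, genes the paper names, and others said to be added. The members and lists were chosen with earlier results of these data known. Symbols were matched to single identifiers, and 5196 of 21426 genes had no symbol. Reads shared by near-identical genes may be split between them. Some genes are not reported here.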

Additional observations from a re-analysis of the deposited data

How the results depend on the processing

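No paired analysis was possible because each group was 1 library without replicate numbers, and for the same reason no replicate could be left out. The 93 higher and 66 lower genes became 146 and 101 with the top 5% as members, 57 and 32 with the top 20%, and 50 and 29 against all other cells. Ranking within classes of total UMIs gave 40 lower genes, ranking within rebuilt clusters gave 30 higher and 12 lower, and leaving out the cluster with most CFD-high cells, an alternative added after seeing the data, gave 45 higher. Minimums of 1 and 50 CPM gave 305 and 208 and then 23 and 26 genes, and a 1.5-fold limit gave 313 and 218. In the TGF-β1 library the 9 higher and 2 lower genes became 57 and 22 at 1 CPM and 2 and 1 at 50 CPM.

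The complement median of 0.67 was 0.86 with the top 5%, 0.51 against all other cells, 0.0935 within clusters, 0.33 without the main cluster, 0.47 at 1 CPM and 0.0587 at 50 CPM, where 2 genes were left. The contractile median of -0.55 was -0.45 against all other cells, -0.47 within classes of UMIs, -0.16 within clusters and -0.31 without the main cluster. Medians that changed sign were those of acute phase genes (-0.15) and proteoglycans (-0.0307) at 50 CPM, mitosis (0.42), S phase (0.00504) and cholesterol synthesis (0.00552) within clusters, cholesterol synthesis (0.00895) and fibroblast markers (0.0131) without the main cluster, WNT and BMP antagonists (0.47) at 1 CPM, and matricellular proteins (at most 0.0317) within clusters and within classes of UMIs. The cause was not tested. Medians of lists with fewer than 3 genes were not compared. The 57 named genes past 2-fold that were followed kept their direction under the 14 alternatives of cells, scaling and ranking, and 24 stayed past 2-fold in each. They were chosen as past 2-fold in these same cells, so this is a description. SAA1, whose direction differed by depth, and COMP, with 4 UMIs in CFD-high cells, are among them. ACTA2, CNN1 and INHBA, also among them, turned inside cluster 0.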
